A study of Mus musculus with 4 samples.

Results

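The cytosolic ribosomal protein genes were followed here through 4 messenger RNA libraries of mouse regulatory T cells (Treg cells), CD4 T cells that express Foxp3 and hold immune responses in check. They were taken by name: symbols that begin with Rpl or Rps and a digit, with Rpsa, Rplp0, Rplp1 and Rplp2, and without Rps6k kinases and numbered pseudogenes (names ending in -ps and digits). The rule found 94 of the 19044 rows of the count table. Rpl37rt held the same 4 counts as Rpl37, so the rows were counted as 93 genes, 54 with large subunit and 39 with small subunit names. Of these, 85 reached a mean of 5 CPM (the count of a gene after scaling all libraries to one total) and were tested, 49 large and 36 small. Among the tested names, 77 encode ribosomal proteins proper and 8 are paralogs, retrogene copies or a binding protein (Rpl22l1, Rpl6l, Rpl7l1, Rps19bp1, Rps27l, Rps27rt, Rps3a2 and Rps4l). The 8 names below the minimum were Rpl32-ps, Rpl32l, Rpl36al, Rpl39l, Rpl3l, Rps23rg1, Rps3a3 and Rps4x-ps, with between 0 and 113 counts in a library.

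The cells came from spleen and peripheral lymph nodes of untreated mice of either of 2 genotypes. WT mice carried Foxp3-YFP-Cre, in which Foxp3-expressing cells make Cre recombinase and a yellow fluorescent protein. The mice labelled KO carried Foxp3-YFP-Cre and Ripk1fl/fl, a floxed Ripk1 gene that Cre cuts in Foxp3-expressing cells. Each genotype gave 1 rTreg and 1 aTreg library, short forms commonly used for resting and activated Treg cells. The sources used here do not give the age or number of the mice or the sorting gate. Below, pairs of values for a genotype name the rTreg library first. With 1 library per group, no contrast of 2 libraries has a replicate check. Intervals in brackets are 95% counting intervals only, and they do not allow for PCR copies of a molecule.

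A ribosome has a small subunit, which reads the messenger RNA, and a large subunit, which joins amino acids, and each is built of ribosomal RNA and many proteins made in matched amounts. The messenger RNAs of these proteins begin with a terminal oligopyrimidine (TOP) tract, a run of C and T in the DNA letters, through which mTORC1 and the RNA-binding protein LARP1 set their translation and stability. MYC and its antagonists act on their transcription. T cells raise ribosome production when they are activated, and several of the genes are known from Diamond-Blackfan anemia, a failure of red cell production.

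Depth ran from 17588754 to 20868319 counts per library. The 7 Treg markers, Foxp3 and Il2ra among them, summed to between 3230 and 3622 CPM, so the labelled cell type was seen in every library. Ripk1 did not show the KO label: it stood at 84.1 and 77.4 CPM in WT and at 84.8 and 80.4 in the KO-labelled libraries. Reads over the floxed part cannot be separated in gene counts, so this does not check a partial deletion. Xist, the RNA of the inactive X chromosome, was at 301 and 337 CPM in the WT libraries and at 0.284 and 0.212 in the KO-labelled ones. Genotype and the sex of the mice therefore cannot be told apart, and every genotype difference below is one between libraries labelled KO and WT.

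The ribosomal protein genes held a smaller share of the counts in the KO-labelled libraries. Their share was 7.82% [7.81, 7.83] and 7.72% [7.71, 7.73] in WT and 6.88% [6.87, 6.89] and 6.65% [6.64, 6.66] in the KO-labelled libraries (Clopper-Pearson intervals). The KO-labelled share was thus 12.0% lower in rTreg and 13.8% lower in aTreg. Both subunits followed this order, with large subunit genes at 4.44% and 4.42% against 3.92% and 3.85%, and small subunit genes at 3.38% and 3.30% against 2.96% and 2.80%. Counts of large over small subunit genes were 1.31 and 1.34 in WT and 1.32 and 1.37 in the KO-labelled libraries. In bulk RNA, fewer cells of a kind and less RNA per cell cannot be told apart, and a share says nothing of the amount of RNA per cell.

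**Figure D1:**
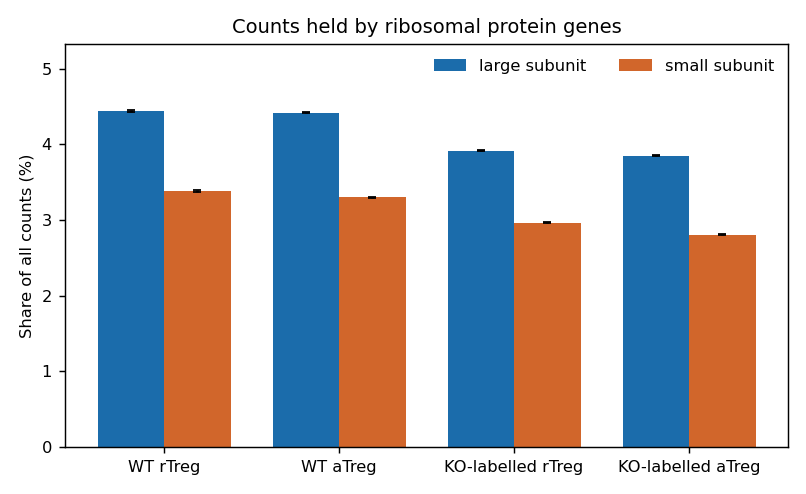
Share of all counts (%) held by large (blue) and small (orange) subunit genes in each of the 4 libraries, with 95% counting intervals as error bars. Both KO-labelled libraries lie below both WT libraries for each subunit.

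Most members were lower in the KO-labelled libraries, and the difference was much alike in rTreg and aTreg. In edgeR's quasi-likelihood test with state and genotype as terms, 49 of the 85 tested members fell and 6 rose, at a Benjamini-Hochberg adjusted p of 0.05. Of all 9680 genes tested, 22.9% fell and 24.5% rose. Most members have a high level, and of the 993 other tested genes averaging 200 CPM or more, 31.8% fell and 28.7% rose. The falls ran from 0.18 to 1.12 on the log2 scale, and the median over all 85 members was -0.28. The p-values do not measure the spread between mice. The fit leaves 1 residual degree of freedom, the difference of the genotype change between states. Its error also draws on 12.1 prior degrees of freedom, which come from all tested genes. With genotype as the only term, 35 members passed, 31 lower and 4 higher. That fit takes the rTreg and aTreg libraries, which are different states, as replicates of a genotype. In the authors' deposited table, 38 of these members pass the same threshold, 34 of them lower in the KO-labelled libraries.

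Without the paralogs and other names, 48 of 77 ribosomal protein genes fell and 5 rose. Both WT libraries lay above both KO-labelled ones for 58 of the 85 members, and below them for 12, against 32.3% and 32.7% of all tested genes. The log2 CPM ratio of KO-labelled to WT was under 0 in both states for 63 members and over 0 in both for 16, against 40.9% and 41.9% of all tested genes. Across the 77 ribosomal protein genes the ratio in rTreg and that in aTreg correlated at r = 0.88 (Spearman's rho = 0.86). The 2 ratios share no library, but they come from the same pair of genotypes, and genes are not independent replicates.

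In rTreg the median ratio of the members was -0.25 against 0.01 over all tested genes, and in aTreg it was -0.29 against 0.00. Log2 ratios of at least 0.32 in size in rTreg were found for 30 members lower and 5 higher, where the background was 17.3% lower and 19.7% higher. In aTreg 40 were lower and 6 higher by that measure, against 19.8% and 21.0% of all tested genes.

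Both subunits had more falls than rises. Of the large subunit names 28 of 49 fell and 1 rose, and of the small subunit names 21 of 36 fell and 5 rose. The median ratio in rTreg was -0.25 for large and -0.23 for small subunit names. In aTreg it was -0.26 for large and -0.35 for small. Without paralogs the medians were -0.26 and -0.27 in rTreg and -0.25 and -0.37 in aTreg, so the small subunit lay 0.01 lower in rTreg and 0.12 lower in aTreg. The difference between subunits was not tested, as it rests on 1 library per group. The widest spread lay in the small subunit, which held 5 of the 6 members that rose and 5 of the 6 with the largest falls.

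**Figure D2:**
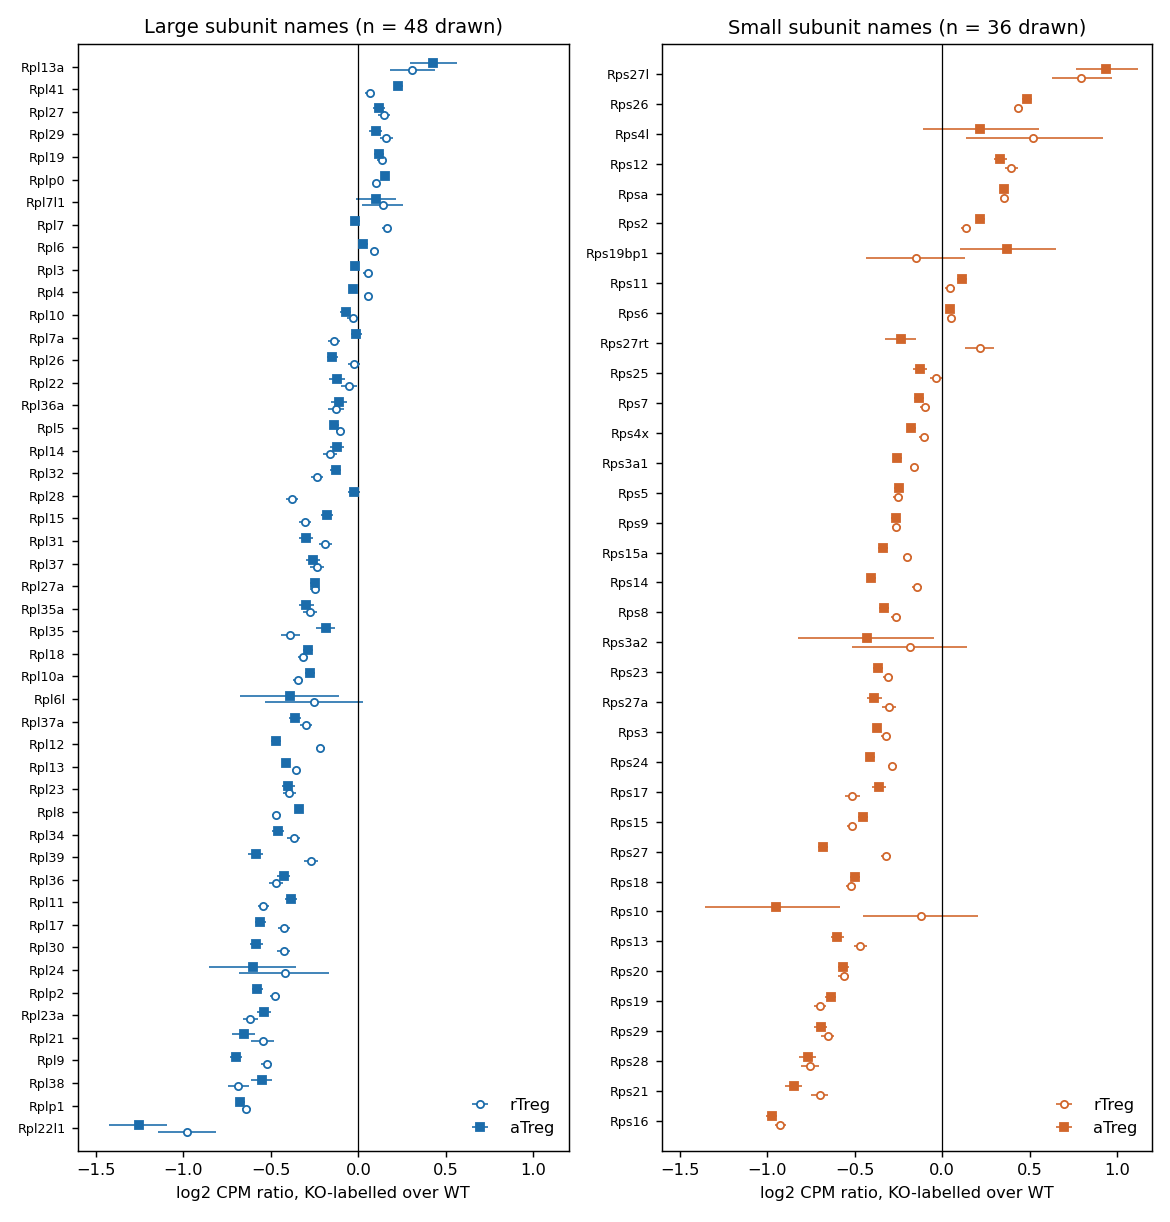
Log2 CPM ratio of the KO-labelled to the WT library for each tested member, in rTreg (open circles) and aTreg (filled squares), with 95% counting intervals, for large (left) and small (right) subunit names sorted by the fitted genotype change, with 1 large subunit gene not drawn. Most members lie left of 0 in both states, from Rpl22l1 and Rps16 at the bottom to Rpl13a and Rps27l at the top.

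Small subunit members showed the largest falls among ribosomal proteins proper. Rps16 (GRCm38 chromosome 7, plus strand), a protein of the small subunit head, was at 1268 and 1265 CPM in WT and at 665 and 642 in the KO-labelled libraries. The WT libraries lay together and far above the KO-labelled ones. Its log2 change was -0.95 ± 0.07 (SE) with an edgeR adjusted p of 2.85e-07.

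Rps21 and Rps28 are short proteins of the small subunit. Rps21 was at 470 and 458 CPM in WT rTreg and aTreg, and at 288 and 253 in the KO-labelled libraries. Rps28 was at 449 and 478 CPM in WT and at 265 and 280 in the KO-labelled libraries. For both genes each WT library lay above each KO-labelled one, as for 32.3% of all tested genes. Their log2 changes were -0.77 and -0.76 (SE 0.07 each, edgeR adjusted p of 2.09e-06 and 1.63e-06).

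Rps29 and Rps19 are both known from Diamond-Blackfan anemia. Rps29 was at 812 and 756 CPM in WT against 514 and 466 in the KO-labelled libraries, a log2 change of -0.67. Rps19 was at 971 and 945 CPM in WT against 595 and 606, a log2 change of -0.67. Not every small subunit gene of high level moved: Rps6, the substrate of S6 kinase, was at 1570 and 1474 CPM in WT against 1618 and 1517, and did not pass. Rps3, at the messenger RNA entry of the small subunit, was at 1675 and 1650 CPM in WT against 1332 and 1271, and fell by 0.35 on the log2 scale.

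The starts of the transcripts are shown for members that rose, fell or did not pass, because the TOP tract lies there. Each line gives the first 25 bases of the principal GENCODE transcript on GRCm38, with the longest run of C and T in capitals.
Rpsa, which rose (chr9:120127689-120127713, plus strand): gaggCTTTTTCCggagcggaagttc
Rps2, which rose (chr17:24720110-24720134, plus strand): CTTCTTCTTCTTCgggagaacacgt
Rps27l, which rose (chr9:66946086-66946110, plus strand): gCCTCTatcccggaagttgctgagg
Rplp1, which fell (chr9:61914518-61914542, minus strand): gaTCTTTTCCTCagctgccgccaag
Rps21, which fell (chr2:180257377-180257401, plus strand): CCCTCCTgcccaatagtgctgcgga
Rps27, which fell (chr3:90213627-90213651, minus strand): gCTCCTTTCCggcggtgacgacctc
Rps16, which fell (chr7:28350652-28350676, plus strand): ggCTTCgacgtcagccgtaaagccc
Rpl4, which did not pass (chr9:64173375-64173399, plus strand): CTTTTCCTgtgggagcagccgggta
A long run thus stood at the start of genes of each outcome. A run of at least 5 C or T on the transcript strand was found in the first 25 bases of 42 of the 77 ribosomal protein genes (54.5%), against 35.9% of the 9206 tested genes with such a transcript. It was present in 24 of 48 that fell, 4 of 5 that rose and 14 of 24 that did not pass. An annotated start need not be the start used in these cells, and a run is a description of letters, not a tested TOP tract.

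Small groups of members are set beside the 57.6% of tested members and the 22.9% of all tested genes that fell. Members of the P stalk, the arm of the large subunit that recruits elongation factors, gave 2 falls among 3 genes. Rplp0, its base and the member with the highest CPM, was at 3474 and 3482 CPM in WT and at 3702 and 3856 in the KO-labelled libraries. Its log2 change of 0.12 did not pass (edgeR adjusted p = 0.151). Rplp1, which binds Rplp0 as a dimer with Rplp2, was at 1510 and 1617 CPM in WT against 965 and 1010 in the KO-labelled libraries. Rplp2 was at 1049 and 1106 CPM against 751 and 739. For these 2 genes each WT library lay above each KO-labelled one, as for 32.3% of all tested genes. Rplp1 and Rplp2 fell by 0.66 and 0.53 on the log2 scale (edgeR adjusted p of 6.1e-06 and 4.35e-05). The difference of these changes from that of Rplp0 was not tested.

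Rpl5 and Rpl11 join the 5S ribosomal RNA in a particle that can also bind MDM2, the inhibitor of p53. Rpl11 was at 961 and 911 CPM in WT against 657 and 696 in the KO-labelled libraries and fell by 0.46 on the log2 scale. Rpl5 was at 1426 and 1340 CPM against 1322 and 1214, and its change of -0.12 did not pass (edgeR adjusted p = 0.163). Whether the 2 changes differ was not tested.

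Falls made up 57.6% of the tested members and 22.9% of all tested genes. Of 11 proteins around the peptide exit tunnel, 6 fell (54.5%, near the share of the members) and 5 did not pass. Rpl38 had the largest change of them, from 302 CPM in both WT libraries to 187 and 206 in the KO-labelled ones (log2 change -0.62). Rpl23a, a docking site for proteins that meet the new chain, was at 636 and 629 CPM in WT against 413 and 432 (log2 change -0.58). Rpl4, whose loop reaches into the tunnel, was at 2105 and 2034 CPM in WT against 2174 and 1984, and did not pass. Its change was 0.01, but -0.04 under upper-quartile scaling and -0.01 when library totals left out the members.

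The 4 X-linked genes were given apart because the genotypes differ in Xist. Rpl39 fell from 559 and 578 CPM in WT to 462 and 384 in the KO-labelled libraries (log2 change -0.43), and did not pass with genotype as the only term. Rpl10, Rpl36a and Rps4x changed by -0.05, -0.12 and -0.14 and did not pass, though Rps4x did with upper-quartile scaling (-0.19). Without these 4 genes the median ratio of the ribosomal protein genes was -0.28 in rTreg and -0.30 in aTreg, and 47 of 73 fell.

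Paralogs gave the largest fall and the largest rise of the set. Rpl22l1 is a paralog of Rpl22, a protein required for the development of alpha-beta T cells. It was at 49.2 and 51.7 CPM in WT and at 24.8 and 21.6 in the KO-labelled libraries, the largest fall of all members (log2 change -1.12 ± 0.10 SE, edgeR adjusted p = 2.62e-06). Rpl22 was at 408 and 377 CPM in WT against 391 and 346, and its change of -0.09 did not pass (edgeR adjusted p = 0.301).

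Rps27l, a paralog of Rps27 and a known p53 target, went the other way. It was at 23.0 and 20.3 CPM in WT against 39.7 and 38.8 in the KO-labelled libraries, a rise of 0.87 ± 0.11 SE (edgeR adjusted p = 2.39e-05). Rps27 was at 1150 and 1210 CPM in WT against 918 and 752, and fell by 0.50. The copy Rps27rt was at 116 and 114 CPM in WT against 134 and 96.3, so the KO-labelled library was the higher one in rTreg and the lower one in aTreg. Its change of -0.01 did not pass and became 0.0032 without a level filter and 0.0066 with genotype as the only term. Counting between such near-identical copies may have been split, so these rows are uncertain.

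**Figure D3:**
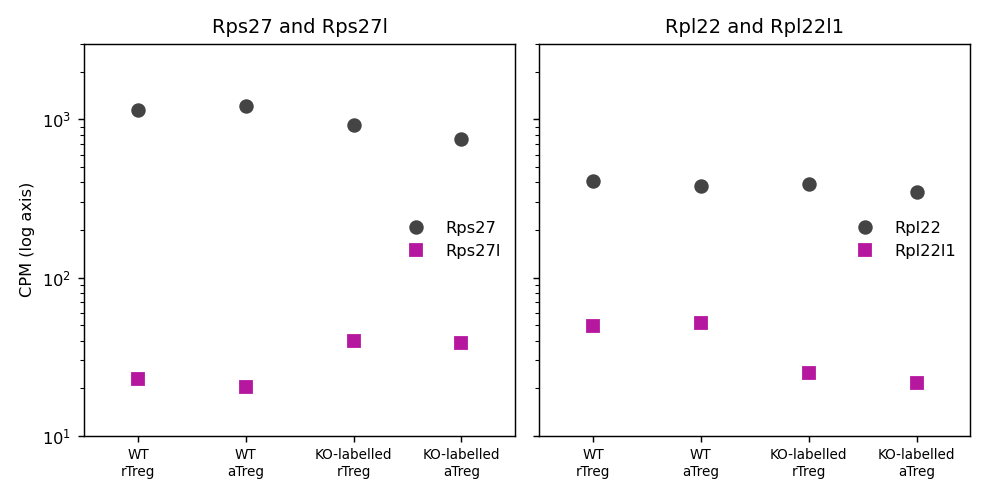
CPM (log axis) of Rps27 and Rps27l (left) and of Rpl22 and Rpl22l1 (right), 1 point per library. Rps27l is near 20 to 23 in WT and near 39 to 40 in the KO-labelled libraries, and Rpl22l1 goes from about 49 to 52 down to 22 to 25.

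Among the other paralog pairs, Rpl7l1 (60.6 and 60.5 CPM in WT against 66.5 and 64.7) and Rpl7 (1243 and 1228 against 1384 and 1209) did not pass, nor did Rps4l, at 4.84 to 8.38 CPM. Rpl3, which lines the peptidyl transferase center, had a change of 0.02 that did not pass and turned to -0.03 with upper-quartile scaling. Rpl3l, a muscle paralog of Rpl3, Rpl39l, a testis paralog of Rpl39, and Rpl36al stayed at or under 2.16 CPM in every library.

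Besides Rps27l, 5 members rose. Rps26, another gene of Diamond-Blackfan anemia, was at 1034 and 929 CPM in WT against 1390 and 1294 in the KO-labelled libraries (log2 change 0.46, edgeR adjusted p = 0.00012). Rpsa, also known as the laminin receptor and the small subunit gene of the highest CPM, was at 2598 and 2605 CPM against 3306 and 3318 (log2 change 0.35, edgeR adjusted p = 0.000872). Its values agreed closely between states within each genotype. Rps12 was at 552 and 558 CPM against 723 and 699, a log2 change of 0.36.

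The remaining rises did not pass in every fit. Rpl13a rose by 0.37, from 47.5 and 39.0 CPM to 58.6 and 52.3. DESeq2 with the same terms gave it an adjusted p of 0.073. Rps2, near the messenger RNA entry of the small subunit, was at 987 and 978 CPM in WT against 1081 and 1134 (log2 change 0.18, edgeR adjusted p = 0.0479). It did not pass with DESeq2, with its size factors, with upper-quartile scaling, with library totals that leave out the members, with a minimum of 1 CPM or with genotype as the only term.

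Reads of ribosomal protein genes can be shared with processed pseudogenes, so 141 further rows named as pseudogenes of a member (-ps) were read beside them. These rows held 0.290% and 0.273% of the counts in WT and 0.286% and 0.261% in the KO-labelled libraries. Pseudogene copies under other names were not added, so the check is partial. Rps10 stood at 183 and 180 counts in WT against 141 and 84, while its pseudogene row Rps10-ps2 held 7234 and 6619 against 7339 and 7716. The Rps10 change of -0.52 did not pass, and with its pseudogene rows added it became 0.26 (edgeR adjusted p = 0.00733), so its sign changed with those rows. It also passed, as a fall, with no level filter (-0.51). Rps2-ps10 fell by 0.93 while Rps2 rose, and with pseudogene rows added the Rps2 change was 0.07 and did not pass. Rps12 kept its rise with such rows added (0.37), as did Rpsa (0.35). For Rpl13a the row so named, Rpl13a-ps1, held only 0 to 2 counts in a library. Rpl13a itself, at 39.0 to 58.6 CPM, lay far below the median large subunit ribosomal protein gene, at 708 to 854 CPM. Whether reads of Rpl13a were counted under other rows was not tested. Rpl24 had only 208 to 357 counts in a library, and its fall of 0.51 did not pass with DESeq2 (adjusted p = 0.139). Rpl34-ps1 held the same 4 counts as Rpl34.

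Some genes of ribosomal proteins carry other names. Of these, Fau (952 and 1022 CPM in WT against 876 and 884) and Rack1 changed by -0.16 and -0.13 between genotypes, and neither passed. Fau passed as a fall with upper-quartile scaling (-0.21) and with library totals that leave out the members (-0.18).

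Other RNA moved with genotype in the same libraries. The nuclear RNAs Malat1 and Neat1 fell by 1.45 and 1.01, and summed to 2810 and 2866 CPM in WT against 1186 and 953 in the KO-labelled libraries. The 5 red cell markers summed to 0.623 and 1.70 CPM in WT against 10.9 and 12.0. Of 4 NK cell markers 2 are in the table: Eomes was at 1.58 and 0.582 CPM in WT against 6.99 and 5.94, and Klrb1c at 0.623 and 2.33 against 0.284 and 1.38. The 6 myeloid markers summed to 14.4 and 14.2 CPM against 18.6 and 15.7, most of it Cd68, and the 4 plasma cell markers to 15.4 and 39.4 against 45.9 and 69.2, nearly all of it Prdm1, which Treg cells also express. The sums of the 6 B cell markers (13.1 to 19.3 CPM) and of the 2 CD8 T cell markers (7.80 to 13.0) overlapped between genotypes. Hba-a2, Hbb-bs and Hbb-bt were at 0 in WT rTreg, and Ms4a1 and Adgre1 at 0 in KO-labelled aTreg. The part of any of these in the ribosomal protein result was not tested.

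Between states no member passed the test. In the same edgeR fit, 0 of 85 members passed for aTreg against rTreg, where 8.00% of all tested genes rose and 5.50% fell. At an unadjusted p under 0.05 there were 5 members, all lower in aTreg, against 26.5% of all tested genes in either direction. DESeq2 also called 0. With no level filter, 2 of 93 passed, Rps27rt (log2 change -0.25) and Rps3a3 (-0.73), both lower in aTreg.

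The median aTreg over rTreg ratio was -0.01 in WT (large -0.01, small -0.03) and -0.05 in the KO-labelled libraries (large -0.04, small -0.08). In WT, 1 member was higher by at least 0.32 on the log2 scale (Rps4l, at 4.84 CPM in rTreg and 7.22 in aTreg) and 1 lower (Rps3a2, at 8.77 and 6.83), against 10.7% and 8.74% of all tested genes. In the KO-labelled libraries 1 was higher (Rps19bp1) and 3 were lower (Rps10, Rps3a2 and Rps27rt), against 9.39% and 7.07%. Of these, only Rps10 encodes a ribosomal protein proper. Across the 77 ribosomal protein genes the state ratio in WT and that in the KO-labelled libraries correlated at r = 0.14 (rho = 0.24).

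**Figure D4:**
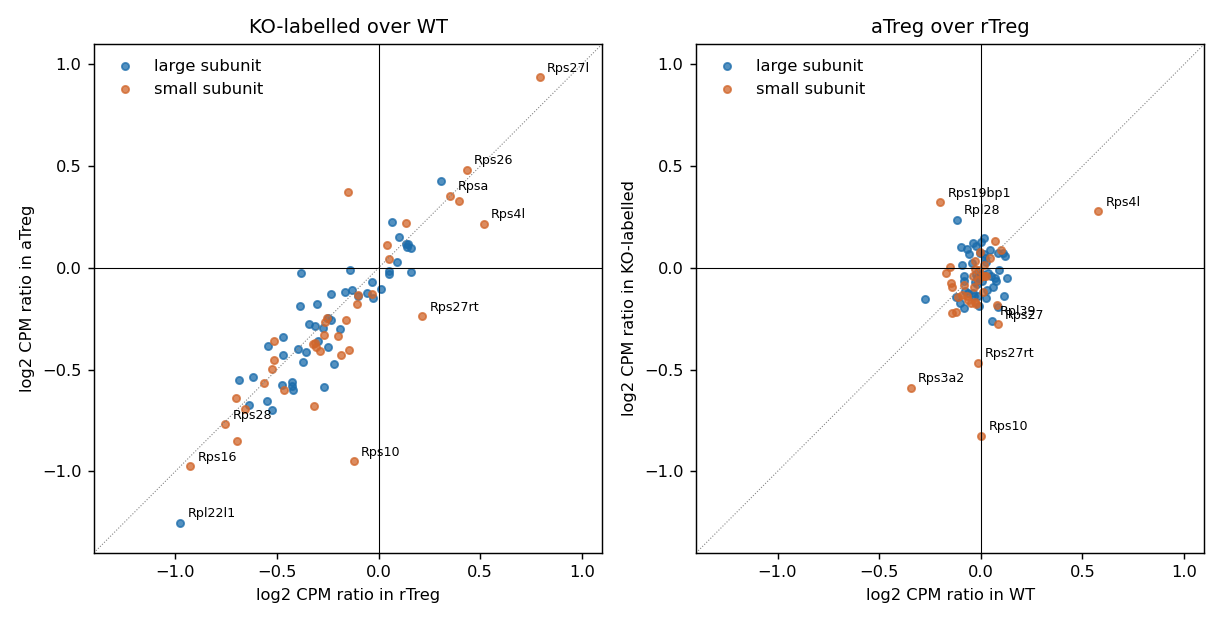
Log2 CPM ratios of the 85 tested members (blue, large subunit names; orange, small), for KO-labelled over WT in rTreg against aTreg (left) and for aTreg over rTreg in WT against KO-labelled (right). Genotype ratios lie along the dotted line of equality, and state ratios crowd around 0.

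A few members had a state difference in 1 genotype that exceeded counting error. Rps27 was 0.08 higher in aTreg of WT [0.06, 0.11] and 0.28 lower in aTreg of the KO-labelled mice, with a ratio of -0.28 [-0.31, -0.25]. Rpl39 had ratios of 0.06 and -0.26. Rpl28 went the other way, with 820 and 750 CPM in WT rTreg and aTreg and 627 and 735 in the KO-labelled libraries, ratios of -0.12 and 0.24.

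Other lists of the translation machinery are set beside the 24.5% of all tested genes that rose and the 22.9% that fell. Of 75 mitochondrial ribosomal protein genes, 22 rose (29.3%, near that background) and 3 fell (4%), with a median KO-labelled over WT ratio of 0.17 in rTreg and 0.23 in aTreg. Mrpl18 had the largest rise of them (0.72). Of 34 translation initiation factors 14 rose (41.2%) and 4 fell (11.8%). Among the rises was Eif4e, the cap-binding protein, with a rise of 0.61. Elongation and release factors had 4 rises (40%) and 1 fall (10%) among 10. Eef2, which moves the ribosome along, rose by 0.22 but did not pass with upper-quartile scaling or with genotype as the only term.

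A list of messenger RNAs known for a TOP tract left out the members and held Fau and Rack1. Of its 22 tested genes, 8 rose (36.4%) and 3 fell (13.6%). Their median ratios were 0.05 in rTreg and 0.00 in aTreg, with 12 above and 10 below 0 in rTreg and 11 on either side in aTreg. Nap1l1, a histone chaperone, rose by 0.76 and Naca, of the complex that meets new protein chains, by 0.40. On a separate list, 6 of 9 small nucleolar RNA host genes fell (66.7%) and none rose, with medians of -0.40 in rTreg and -0.41 in aTreg. Whether these host genes carry a TOP tract was not examined here. Snhg8 had the largest fall of these, from 39.1 and 37.2 CPM in WT to 21.8 and 20.5.

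Of 77 ribosome biogenesis factors, 18 fell (23.4%, near the background), 7 rose (9.09%) and 52 did not pass. Mdn1, a giant ATPase that releases assembly factors from the large subunit, fell by 0.99, and Nle1, a factor it acts on, fell by 0.84. Of 15 genes for RNA polymerase I and its factors, 3 fell (20%, near the background), with Polr1b at -0.61, and 1 rose. The subunits' genes were thus on the low side of 0 by more than their assembly factors, whose median ratio was -0.05 in both states.

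**Figure D5:**
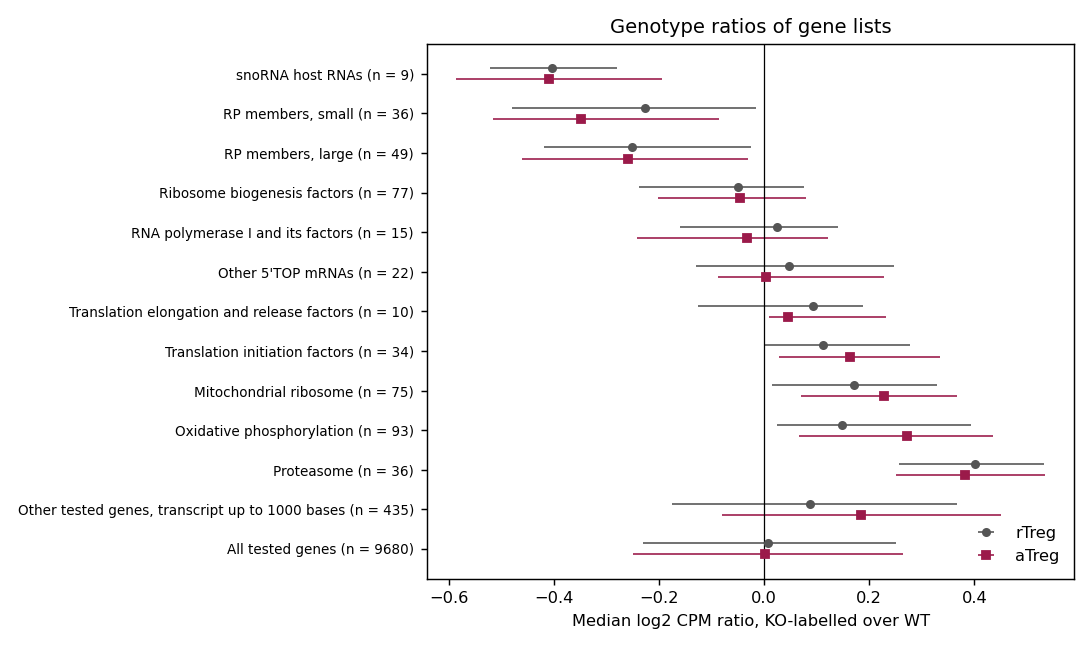
Median log2 CPM ratio of KO-labelled over WT in rTreg (circles) and aTreg (squares) for the tested genes of each list, with bars from the 25th to the 75th percentile of the genes. Ribosomal protein (RP) names and small nucleolar RNA hosts lie left of 0, and proteasome, oxidative phosphorylation and mitochondrial ribosome genes right of it.

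Gene sets of other functions were also compared. Proteasome genes rose in 30 of 36 cases (83.3%) and fell in 1, and oxidative phosphorylation genes rose in 44 of 93 (47.3%) and fell in 6. The latter were taken by name and include assembly factors such as Ndufaf1. Among them Ndufb4, Ndufb4b and Ndufb4c hold the same counts, did not pass and were counted as separate genes. The 435 other tested genes with a transcript of up to 1000 bases had medians of 0.09 in rTreg and 0.19 in aTreg, the opposite sign of the members. The 993 other genes at an average of 200 CPM or more had medians of -0.04 and -0.02. Within the 77 ribosomal protein genes, transcript length and the ratio had a rho of 0.29 in rTreg and 0.28 in aTreg, and mean CPM and the ratio a rho of 0.31 in both. These points share the same 4 libraries.

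Of 10 tested regulators of TOP messenger RNAs and of ribosomal protein gene transcription, 1 rose (10%) and 5 fell (50%). Of all tested genes 24.5% rose and 22.9% fell. Larp1, which binds the TOP tract, was at 270 and 257 CPM in WT against 348 and 343 in the KO-labelled libraries and rose by 0.40. Rptor, the substrate-binding subunit of mTORC1, fell by 0.48 but did not pass with genotype as the only term. The MYC antagonists Mxd4 and Mnt fell by 0.85 and 0.41. Myc was at 143 and 174 CPM in WT rTreg and aTreg and at 129 and 153 in the KO-labelled libraries. It rose in aTreg (log2 change 0.28, edgeR adjusted p = 0.0126), while its genotype change of -0.17 did not pass (edgeR adjusted p = 0.0505) and passed with DESeq2 size factors (-0.17) and upper-quartile scaling (-0.21). Eif4ebp1, an mTORC1 target, was at 8.19 to 11.6 CPM and passed for neither term.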

How the data were processed

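Per the labels' protocols, a SMARTer kit was used on total RNA from a TRIzol extraction. HISAT2 2.2.1, featureCounts 2.0.1 and GRCm38 are named in the submitters' processing notes. The sources used here name neither the annotation nor the strand setting. The deposited table holds raw read counts per gene symbol in 19044 rows, which the authors had not scaled. A second deposited table holds variance-stabilised values on a log2 scale, the authors' log2 fold change of WT over KO, and its adjusted p-value. These served only as alternatives.

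CPM is counts scaled to a common library total. Log2 CPM ratios used TMM scaling (factors 0.995 to 1.006) and a prior count of 2. Genes averaging 5 CPM or more were tested (9680 genes, 99.31% of counts) with edgeR 4.0.16 in R 4.3.3, by quasi-likelihood, fitting state plus genotype to the 4 libraries. The common biological coefficient of variation was 6.66% and the prior degrees of freedom 12.1. Adjusted p-values are Benjamini-Hochberg over all tested genes. The fit was tested on simulated counts that had a fixed coefficient of variation and no state effect. The states were replicates there, so the simulation does not check the p-values of these data. DESeq2 1.42.0, other scalings, filters, a smaller prior count, terms alone and added pseudogene rows were the alternatives. Ratio intervals are exact binomial, conditional on the sum. Among rows of at least 100 counts, 106 share all 4 counts with another row.

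Named members are the 5 highest and 5 lowest per contrast, the 6 called per direction with the largest change, the 3 highest CPM per subunit, members of the small lists, up to 4 called genes of each other list, and a few single genes. The other genes in the text were chosen after their values were seen. Results of single genes withheld from this text are not reported here, though they stay in the counts and medians. The members and lists were chosen with earlier results of these data known. Coordinates, lengths and transcript starts are from GENCODE M21 on GRCm38.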

Additional observations from a re-analysis of the deposited data

Results flagged for a closer look

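For 15 results the 2 libraries of one arm differed in one direction and those of the other arm in the opposite direction, each by more than counting error. None of these differences was tested, as there is 1 library per group. For KO-labelled over WT, the aTreg ratio minus the rTreg ratio (log2) was -0.084 for Rpl4 and -0.45 for Rps27rt.

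For aTreg over rTreg, the ratio in the KO-labelled libraries minus that in WT was negative for 7 members. It was -0.36 for Rps27, -0.32 for Rpl39, -0.26 for Rps14, -0.25 for Rpl12, -0.16 for Rpl30, -0.14 for Rpl17 and -0.091 for Rpl34. It was positive for Rpl28 (0.36), Rpl35 (0.20), Rpl41 (0.16), Rpl11 (0.16), Rpl8 (0.13) and Rpl15 (0.12), 6 members in all. Of these members, Rps14 and Rps27 are small subunit proteins and the others belong to the large subunit.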

How the results depend on the processing

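No paired analysis over mice was possible because there is 1 library per group. Leaving out a library leaves the additive fit no residual degree of freedom. The count of members called for genotype stayed between 50 and 57 across DESeq2, the other scalings and the filters, and fell to 35 with genotype as the only term. For state, 2 members passed with no level filter. Upper-quartile scaling moved the rTreg genotype medians to -0.302 for all members, -0.302 for large and -0.278 for small, and the aTreg medians to -0.330, -0.300 and -0.391. The small subunit median in rTreg was -0.260 with a minimum of 1 CPM, -0.273 with 50 CPM and -0.267 without paralogs. With the authors' deposited variance-stabilised log2 values, the aTreg medians were -0.250 for all members and -0.316 for small. No scaling moved the median of all genes by over 0.1, the largest shift being -0.05 with upper-quartile scaling. Without paralogs, the share of counts was 7.79% and 7.69% in WT rTreg and aTreg and 6.85% and 6.62% in the KO-labelled libraries. With pseudogene rows it was 8.11%, 7.99%, 7.16% and 6.91%. The sign changed for genes near 0: Rps27rt (0.0032 with no filter, 0.0066 with genotype alone), Rpl4 (-0.036 with upper quartile, -0.010 with totals without members), Rpl3 (-0.029 and -0.0038 likewise) and Ripk1 (-0.0075 with upper quartile). The cause was not tested.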
